A study of Homo sapiens with 6 samples.

Results

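The TRIM genes encode a family of ubiquitin ligases named for a tripartite motif. They were chosen here as the protein-coding genes whose symbol is TRIM followed by a number, with TRIM22 and TRIM25 left out, and were matched by Ensembl identifier. The rule gave 65 of the 62703 genes in the count tables, on 17 chromosomes, and used no measured value. Messenger RNA was sequenced in bulk from MDA-MB-231, a mesenchymal triple-negative breast cancer cell line. 3 libraries came from cells with hairpin RNA against RNF20 (shRNF20) and 3 from cells with a control hairpin (shControl). RNF20 is a ligase that, paired with RNF40, ubiquitinates histone H2B along transcribed genes, and the title of the series links it to immunosuppression, CDK9 and LSD1. The labels give no hairpin number, time after introducing the hairpin, or whether each line was 1 clone or a pool. They also do not say that replicates were separate cultures, so every p-value here reflects the spread between these libraries, which could be technical.

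A TRIM protein typically carries a RING domain that binds an E2 enzyme, then B-box zinc-binding modules and a coiled coil through which it pairs with itself or with relatives. The part after the coiled coil sets the class: a PRY-SPRY domain in many antiviral members, a PHD finger with a bromodomain in chromatin regulators, NHL repeats in regulators of RNA and transport, and a COS box in microtubule-binding members. The family is best known for sensing and restricting viruses, for tuning interferon and NF-kB signalling, and, through TRIM28, for silencing of transposons with zinc finger proteins.

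RNF20 (ENSG00000155827.12, chr9:101533851-101563344 on hg38) was the check of the knockdown. Its level was 14.1, 12.2 and 11.1 CPM (counts per 1000000 gene counts, on scaled library sizes) in the shRNF20 libraries, against 57.8, 58.5 and 58.0 CPM in the shControl libraries. The groups did not overlap, and the log2 fold change was -2.22 ± 0.11 (SE; edgeR quasi-likelihood test, adjusted p = 5.23e-06). Gene counts per library ran between 21988826 and 29685306. Mitochondrial genes took 6.22%, 6.09% and 4.91% of gene counts in the shRNF20 libraries, against 0.966%, 1.38% and 0.934% in the shControl libraries. Reads outside annotated exons were 5.46%, 5.49% and 5.05% of all reads in the shRNF20 libraries, against 2.58%, 2.51% and 2.39% in the shControl libraries. The part of these shifts in the TRIM results was not tested, except that all 19 TRIM calls below stayed with mitochondrial genes left out. VIM, CD44 and AXL, which mark the line, summed to between 2124 and 2135 CPM in the shRNF20 libraries and between 2667 and 2996 CPM in the shControl libraries. Of these 3, 2 were called lower, beside 29.8% of all genes tested, and the log2 fold changes ran between -1.23 and -0.06. Of the genes that should be near 0, PGR averaged 0.0514 CPM in shRNF20 cells and 0.0841 CPM in shControl cells. ESR1 averaged 1.44 CPM in shRNF20 cells and 0.0997 CPM in shControl cells, a called rise with a log2 fold change of 3.76. GATA3 was not near 0, at 10.4 CPM in shRNF20 cells and 9.98 CPM in shControl cells, and neither was CDH1, at 6.99 CPM in shRNF20 cells and 18.2 CPM in shControl cells. The fall of CDH1 was called, with a log2 fold change of -1.38. The leukocyte markers PTPRC, CD3E, ITGAM and CD68 summed to between 0.545 and 0.885 CPM in shRNF20 libraries and between 0.554 and 1.46 CPM in shControl libraries. The 6 fibroblast and endothelial markers (COL1A1, COL3A1, DCN, LUM, PECAM1 and VWF) summed to between 37.8 and 39.6 CPM in shRNF20 libraries and between 18.7 and 21.5 CPM in shControl libraries, most of it COL1A1, and their part in the TRIM results was not tested. In bulk RNA, fewer cells expressing a gene and less of its RNA per cell cannot be told apart.

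43 of the 65 TRIM genes had enough counts to be tested. 10 rose and 9 fell in shRNF20 cells, and 24 did not pass an adjusted p of 0.05 in edgeR's quasi-likelihood test. This was a smaller share of calls than among all genes: 44.2% of the tested TRIM genes were called, where 58.4% of the 15797 genes tested were called. By direction, 23.3% of the tested TRIM genes were higher, beside 28.7% of all genes tested, and 20.9% were lower, beside 29.8% of all genes tested. The median log2 fold change was 0.12 over the tested TRIM genes and -0.01 over all genes tested. The number that rose was 5 with shRNF20 replicate 2 left out, and the median was 0.06 without shRNF20 replicate 1 and 0.04 without shControl replicate 3.

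Of the 19 called members, 13 (68.4%) moved by less than 2-fold, close to the 62.0% of all called genes that did. TRIM54 and TRIM52 were at least 2-fold higher, where 10.5% of all genes tested were called and at least 2-fold higher. TRIM63, TRIM68, TRIM65 and TRIM69 were at least 2-fold lower, where 11.7% of all genes tested were called and at least 2-fold lower. In all 19 the CPM values of the groups did not overlap, and the same held for 5 members that did not pass, TRIM17, TRIM14, TRIM37, TRIM11 and TRIM27. Together these were 55.8% of the tested TRIM genes, beside 66.3% of all genes tested. The plot of fold changes over all tested members shows the few large shifts at both ends and the block near 0.

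**Figure D1:**
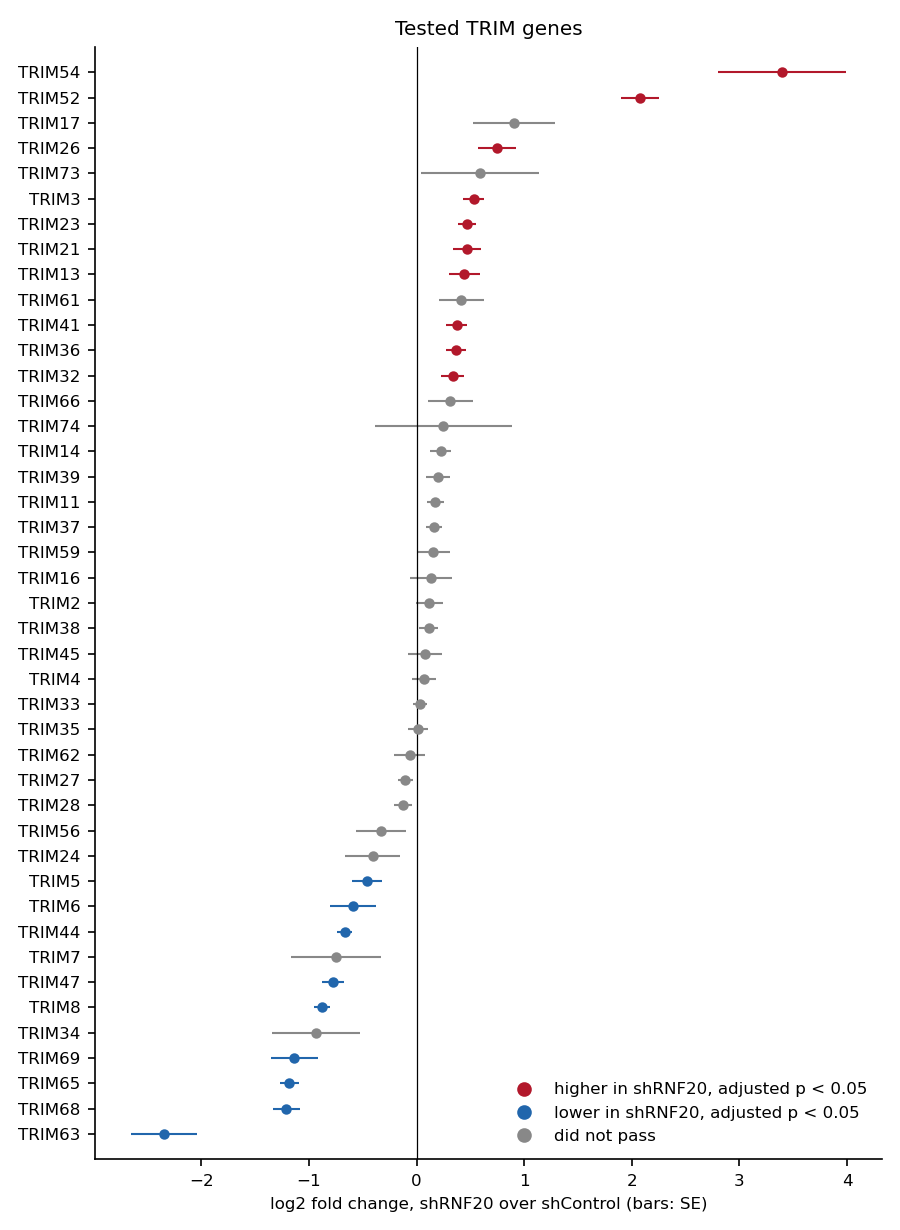
Log2 fold change of each of the 43 tested TRIM genes, shRNF20 over shControl, with the SE as a horizontal bar. Red marks the 10 members that rose, blue the 9 that fell and grey the 24 that did not pass; values run between -2.35 for TRIM63 and 3.40 for TRIM54.

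By the mean of both groups per exon length, the 5 most abundant members were TRIM8 and TRIM65, which fell, and TRIM28, TRIM37 and TRIM14, which did not pass. Per kb of exon, TRIM28, the corepressor KAP1, had the highest level in both groups, at 112.5 ± 4.88 CPM per kb in shRNF20 cells and 122.4 ± 11.3 CPM per kb in shControl cells (SD, n = 3 libraries each, as for all such values here). TRIM8 averaged 21.3 ± 0.845 CPM per kb in shRNF20 cells and 39.1 ± 2.38 CPM per kb in shControl cells. TRIM37, a ligase that limits centriole assembly, averaged 24.9 ± 0.322 CPM per kb in shRNF20 cells and 22.2 ± 1.47 CPM per kb in shControl cells. TRIM8 was the second most abundant member in shControl cells, while in shRNF20 cells its mean lay under that of TRIM37. TRIM65 averaged 10.02 ± 0.721 CPM per kb in shRNF20 cells and 22.7 ± 1.79 CPM per kb in shControl cells, and TRIM14, an adaptor of the MAVS pathway that lacks a RING, averaged 16.0 ± 0.834 CPM per kb in shRNF20 cells and 13.7 ± 1.64 CPM per kb in shControl cells. In shControl cells TRIM65 and TRIM37 lay within 1 SD of each other. The order differed within groups. In shControl cells TRIM44 (16.1 CPM per kb) and TRIM27 (13.8) lay above TRIM14. In shRNF20 cells TRIM26 (17.5 CPM per kb) lay above TRIM14, and TRIM27 (12.8) and TRIM33 (12.5) were among those above TRIM65. Exon lengths include bases shared with other genes, whose reads are not counted, so members such as TRIM47, with 51.5% shared, can read too low. The plot of levels per exon length sets both groups side by side for every tested member.

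**Figure D2:**
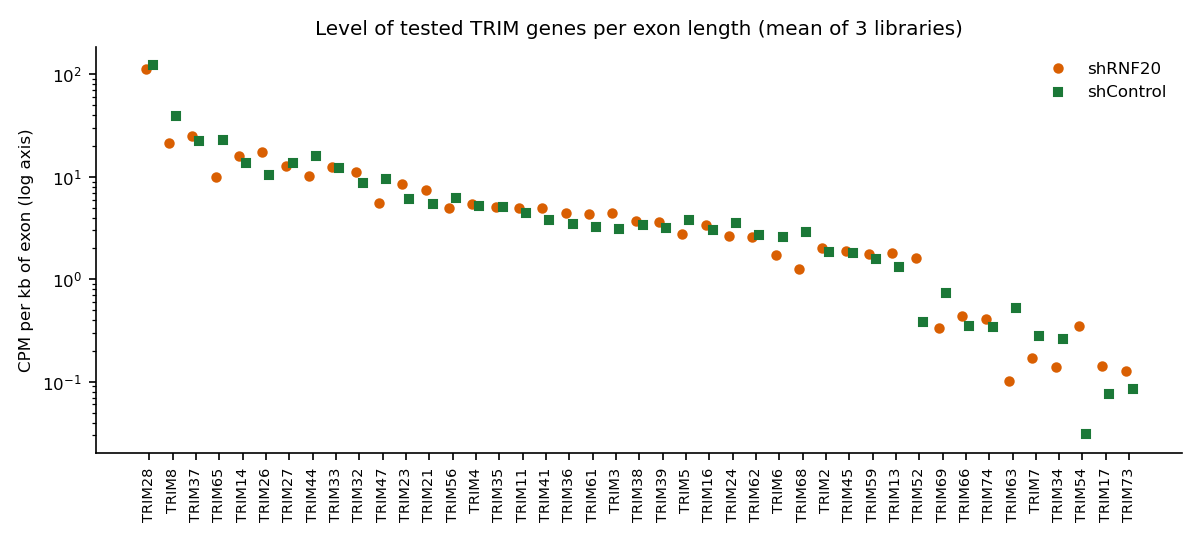
Mean level of each tested TRIM gene in CPM per kb of exon (log axis), shRNF20 as circles and shControl as squares, ordered by the mean of both groups. TRIM28 stands above every other member in both groups, and TRIM54, TRIM52, TRIM63 and TRIM68 show wide gaps between the groups.

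Summed over all 65 members, TRIM mRNA made up between 1920 and 1977 CPM in the shRNF20 libraries and between 2141 and 2314 CPM in the shControl libraries, with no overlap. The members with no domain after the coiled coil, which include TRIM8 and TRIM44, held most of that gap: they summed to between 407.4 and 416.2 CPM in the shRNF20 libraries and between 612.6 and 702.2 CPM in the shControl libraries. The PRY-SPRY members summed to between 596.9 and 609.8 CPM in the shRNF20 libraries and between 605.8 and 638.1 CPM in the shControl libraries, with ranges that overlapped.

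The 4 chromatin regulators with a PHD finger and a bromodomain did not pass the test, and their median log2 fold change was -0.05. Their share called was 0%, beside 58.4% of all genes tested. TRIM28 (ENSG00000130726.12, chr19:58544091-58550722) recruits the H3K9 methyltransferase SETDB1 to sites bound by zinc finger proteins. It had 452, 474 and 435 CPM in the shRNF20 libraries, against 532, 444 and 506 CPM in the shControl libraries. The groups overlapped through shControl replicate 2, and the log2 fold change was -0.12 ± 0.08 (adjusted p = 0.239). Without shControl replicate 2 it was -0.22 and passed (adjusted p = 0.0154). TRIM33, which acts in TGF-beta signalling, had a log2 fold change of 0.03 ± 0.07 (adjusted p = 0.722), and TRIM66, a germline-enriched relative, one of 0.31 ± 0.21 (adjusted p = 0.222). TRIM24, a coactivator of nuclear receptors and a ligase for p53, had 22.9, 26.7 and 23.8 CPM in the shRNF20 libraries, against 48.8, 24.2 and 24.2 CPM in the shControl libraries. Only shControl replicate 1 stood above the rest, and the log2 fold change of -0.41 (adjusted p = 0.202) was -0.01 (adjusted p = 0.961) without it.

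Among 20 members with a known part in innate sensing or antiviral defence, 19 were tested, and 6 rose, 6 fell and 7 did not pass; the median log2 fold change was 0.07. The share called, 63.2%, was close to the 58.4% among all genes tested. With shRNF20 replicate 2 left out, 2 rose and 4 fell.

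The strongest call among these was TRIM65 (ENSG00000141569.12, chr17:75880335-75897003), the ligase that ubiquitinates the RNA sensor MDA5. TRIM65 had 42.2, 40.2 and 36.5 CPM in the shRNF20 libraries, against 81.7, 94.2 and 93.7 CPM in the shControl libraries. Every shRNF20 library lay under every shControl library. The log2 fold change was -1.18 ± 0.09 (edgeR adjusted p = 2.58e-05), which is 2.27-fold lower in shRNF20 cells.

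TRIM8 (ENSG00000171206.15, chr10:102642310-102660680) ubiquitinates the kinase TAK1 in the TNF and IL-1 pathways and also stabilises p53. TRIM8 had 199, 198 and 212 CPM in the shRNF20 libraries, against 379.9, 392 and 348 CPM in the shControl libraries. The groups were far apart, with a log2 fold change of -0.88 ± 0.07 (adjusted p = 3.53e-05), 1.84-fold lower in shRNF20 cells. TRIM44 (ENSG00000166326.7, chr11:35662805-35818007), a member without a RING that protects the adaptor MAVS from degradation, had 131, 135 and 132 CPM in the shRNF20 libraries, against 206, 221 and 205 CPM in the shControl libraries. Its shRNF20 values were nearly equal and all under the shControl values, with a log2 fold change of -0.67 ± 0.07 (adjusted p = 7.46e-05). TRIM68 (ENSG00000167333.13, chr11:4598672-4608259), a negative regulator of interferon production and an androgen receptor coactivator, had 5.35, 5.18 and 5.59 CPM in the shRNF20 libraries, against 12.3, 12.8 and 12.3 CPM in the shControl libraries. Both groups were tight, and the log2 fold change was -1.21 ± 0.12 (adjusted p = 9.09e-05).

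TRIM5 and TRIM6 fell by less. TRIM5 (ENSG00000132256.20, chr11:5663557-5938619), which binds incoming retroviral capsids, had 14.2, 12.9 and 12.7 CPM in the shRNF20 libraries, against 15.1, 21.1 and 18.5 CPM in the shControl libraries. The lowest shControl library was close to the highest shRNF20 library, and the log2 fold change was -0.46 ± 0.14 (adjusted p = 0.0213). Without shRNF20 replicate 2 it was -0.46 (adjusted p = 0.0717) and without shRNF20 replicate 3 it was -0.44 (adjusted p = 0.0773), neither a call. TRIM6 (ENSG00000121236.21, chr11:5596109-5612958), which makes free ubiquitin chains that activate the kinase IKK-epsilon, had 7.54, 6.08 and 6.89 CPM in the shRNF20 libraries, against 13.7, 9.28 and 7.84 CPM in the shControl libraries. The shControl libraries were widely spread, and the log2 fold change was -0.59 ± 0.22 (adjusted p = 0.0434). The TRIM6 call was lost without shRNF20 replicate 1 (-0.68, adjusted p = 0.0678), shRNF20 replicate 2 (-0.53, adjusted p = 0.128), shRNF20 replicate 3 (-0.61, adjusted p = 0.101) or shControl replicate 1 (-0.34, adjusted p = 0.0952), and also in limma-voom (adjusted p = 0.0572), upper quartile scaling (adjusted p = 0.0528) and the sum of both strands (adjusted p = 0.0506).

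On the rising side, TRIM23 (ENSG00000113595.15, chr5:65589680-65625975), which carries a GTPase domain of the ARF family and activates TBK1 in antiviral autophagy, had 41.6, 39.3 and 40.8 CPM in the shRNF20 libraries, against 27.6, 30.7 and 29.6 CPM in the shControl libraries. The groups were well separated, with a log2 fold change of 0.47 ± 0.08 (adjusted p = 0.00156). TRIM26 (ENSG00000234127.9, chr6:30184455-30213427), a ligase reported to act on IRF3 and TBK1, had 77.1, 77.4 and 75.7 CPM in the shRNF20 libraries, against 60.3, 34.9 and 41.7 CPM in the shControl libraries. shControl replicate 1 was closest to the shRNF20 values; the log2 fold change was 0.75 ± 0.17 (adjusted p = 0.00597), and 0.98 (adjusted p = 9.25e-05) without that library. TRIM41 (ENSG00000146063.20, chr5:181222499-181235809), which targets the influenza nucleoprotein, had 63.2, 64.9 and 61.5 CPM in the shRNF20 libraries, against 42.2, 52.6 and 51.5 CPM in the shControl libraries. All shRNF20 values were higher, with a log2 fold change of 0.37 ± 0.10 (adjusted p = 0.01), which was 0.34 and no call without shRNF20 replicate 2 (adjusted p = 0.0566).

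TRIM21 (ENSG00000132109.10, chr11:4384897-4393696), the cytosolic receptor for antibody-coated virus, had 13.4, 14.8 and 15.1 CPM in the shRNF20 libraries, against 11.7, 10.03 and 9.37 CPM in the shControl libraries. The log2 fold change was 0.47 ± 0.13 (adjusted p = 0.0137), but 0.44 without shRNF20 replicate 2 (adjusted p = 0.0597) and 0.42 without shRNF20 replicate 3 (adjusted p = 0.0637). TRIM32 (ENSG00000119401.11, chr9:116687302-116701300), an NHL member that ubiquitinates STING and is mutated in a limb-girdle muscular dystrophy, had 41.7, 43.5 and 40.5 CPM in the shRNF20 libraries, against 32.2, 29.6 and 37.9 CPM in the shControl libraries. shControl replicate 3 lay near the shRNF20 values, and the log2 fold change was 0.34 ± 0.11 (adjusted p = 0.0236). That call was lost without shRNF20 replicate 1 (0.33, adjusted p = 0.0825), shRNF20 replicate 2 (0.29, adjusted p = 0.106), shRNF20 replicate 3 (0.35, adjusted p = 0.0659), shControl replicate 1 (0.29, adjusted p = 0.0633) or shControl replicate 2 (0.24, adjusted p = 0.0611). TRIM13 (ENSG00000204977.10, chr13:49995888-50020481), a ligase anchored in the endoplasmic reticulum that restrains MDA5 signalling, had 15.5, 15.1 and 13.4 CPM in the shRNF20 libraries, against 12.7, 10.1 and 9.45 CPM in the shControl libraries. The groups came close to each other at their edges, with a log2 fold change of 0.44 ± 0.14 (adjusted p = 0.0261). It was lost without shRNF20 replicate 1 (0.39, adjusted p = 0.104), shRNF20 replicate 2 (0.41, adjusted p = 0.0909) or shControl replicate 3 (0.35, adjusted p = 0.0731).

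The 7 innate members that did not pass were TRIM4 at a log2 fold change of 0.07, TRIM11 at 0.17, TRIM14 at 0.22, TRIM27 at -0.11, TRIM34 at -0.94, TRIM38 at 0.11 and TRIM56 at -0.33. TRIM14 had 82.3, 90.5 and 89.9 CPM in the shRNF20 libraries, against 82.1, 64.9 and 77.8 CPM in the shControl libraries (SE 0.10, adjusted p = 0.0784). Its groups nearly touched at shControl replicate 1, and without that library the log2 fold change was 0.27 and passed (adjusted p = 0.0424), as it did at 0.26 with upper quartile scaling (adjusted p = 0.0399). TRIM11, a ligase that restrains interferon-beta production, passed at 0.22 with the counts of both strands summed (adjusted p = 0.0334). TRIM56, which binds viral RNA and promotes STING signalling, had 57.9, 55.3 and 53.6 CPM in the shRNF20 libraries, against 102, 54.95 and 52.3 CPM in the shControl libraries. Only shControl replicate 1 was high, and the log2 fold change of TRIM56 was 0.03 (adjusted p = 0.747) without it. TRIM34, a partner of TRIM5 in restricting retroviruses, passed without shControl replicate 2 (-1.21, adjusted p = 0.0276).

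The plot of CPM by library shows all 19 called members.

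**Figure D3:**
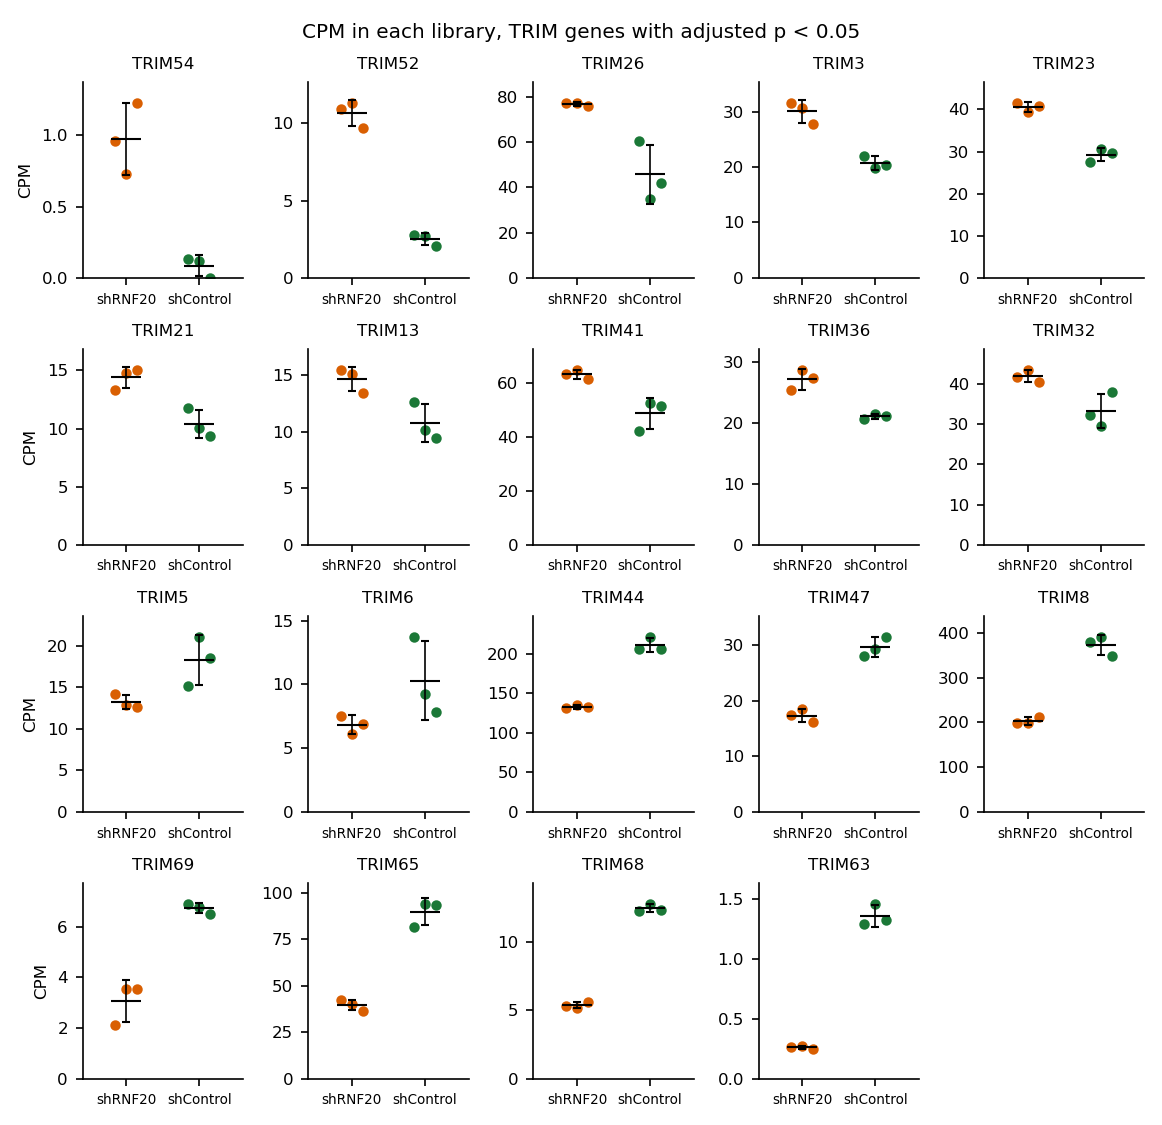
CPM in each library for the 19 called TRIM genes, 1 panel per gene, shRNF20 left of shControl; points are the 3 libraries, and the black bar is the mean with the SD. Panels run by fold change, TRIM54 first and TRIM63 last, each axis starts at 0, and in no panel do the groups overlap.

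10 members are known to be induced by interferon, and 9 of them were tested. TRIM21 and TRIM26 rose, TRIM5, TRIM6 and TRIM69 fell, and TRIM14, TRIM34, TRIM38 and TRIM56 did not pass, with a median log2 fold change of -0.33. The share called, 55.6%, was near the 58.4% of all genes tested. With shRNF20 replicate 2 or with shRNF20 replicate 3 left out, 1 rose and 1 fell. TRIM69 (ENSG00000185880.13, chr15:44728988-44767829), which restricts vesicular stomatitis virus and sits at centrosomes, had 2.12, 3.54 and 3.55 CPM in the shRNF20 libraries, against 6.91, 6.79 and 6.52 CPM in the shControl libraries. shRNF20 replicate 1 was the lowest, every shControl value was well above, and the log2 fold change was -1.14 ± 0.22 (adjusted p = 0.00245).

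Interferon acts on such genes through a response element bound by ISGF3 and IRF proteins, written here as GAAA, any 2 bases, and GAAA again. This motif was searched on both strands of promoter windows of 300 bases (250 before to 50 after the RefSeq gene start, GRCh38.p14), of which 52 of the 65 members had one. It was present in 996 of 27305 windows of all genes, which is 3.65%, and in 9 of the 52 TRIM windows. These were 2 of 9 windows of members that rose (TRIM21 and TRIM26), 3 of 8 of members that fell (TRIM5, TRIM44 and TRIM69), 4 of 17 of members that did not pass (TRIM2, TRIM14, TRIM16 and TRIM34) and 0 of 18 of members not tested. A match is a description of letters and not a site or a cause. The stretches of the called members, and of the interferon-induced TRIM14 and TRIM34, are shown from RefSeq in the direction of the gene, with the matching bases in capitals; overlapping matches run together in TRIM21 and TRIM26, and a match on the other strand reads TTTC, any 2 bases, and TTTC.
TRIM21: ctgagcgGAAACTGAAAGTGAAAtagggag
TRIM26: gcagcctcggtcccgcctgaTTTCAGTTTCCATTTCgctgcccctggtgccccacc
TRIM5: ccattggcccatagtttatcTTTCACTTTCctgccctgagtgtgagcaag
TRIM44: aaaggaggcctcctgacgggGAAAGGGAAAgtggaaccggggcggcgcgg
TRIM69: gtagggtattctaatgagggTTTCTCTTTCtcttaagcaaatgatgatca
TRIM14: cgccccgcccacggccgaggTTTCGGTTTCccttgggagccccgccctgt
TRIM34: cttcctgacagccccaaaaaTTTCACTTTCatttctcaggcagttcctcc

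The TRIM21 stretch is chr11:4393663-4393692 (minus strand), and its matches begin 18 bases after the gene start. The TRIM26 stretch is chr6:30213565-30213620 (minus strand), the TRIM5 stretch chr11:5685072-5685121 (minus strand), the TRIM44 stretch chr11:35662720-35662769 (plus strand) and the TRIM69 stretch chr15:44736446-44736495 (plus strand). The TRIM14 stretch is chr9:98119219-98119268 (minus strand) and the TRIM34 stretch chr11:5624891-5624940 (plus strand). RefSeq and GENCODE place the start of some genes differently. The stretches of TRIM5, TRIM34 and TRIM69 lie inside the GENCODE gene spans, which start at 5938619, 5619764 and 44728988. The TRIM16 match, not shown, also lies inside its GENCODE span. Whether sequence at the GENCODE starts of these genes holds a match was not tested. TRIM5 and TRIM34 share the core TTTCACTTTC. Their log2 fold changes were -0.46 and -0.94, and that of TRIM34 did not pass (adjusted p = 0.0801). TRIM21 and TRIM26 each hold overlapping matches, with log2 fold changes of 0.47 and 0.75. Whether the form of a match goes with the direction of change was not tested. The NF-kB motif, searched on both strands as GGGA, any 1 base, and TTTCC, was in 0.579% of all windows and in 0 of the 52 TRIM windows.

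**Figure D4:**
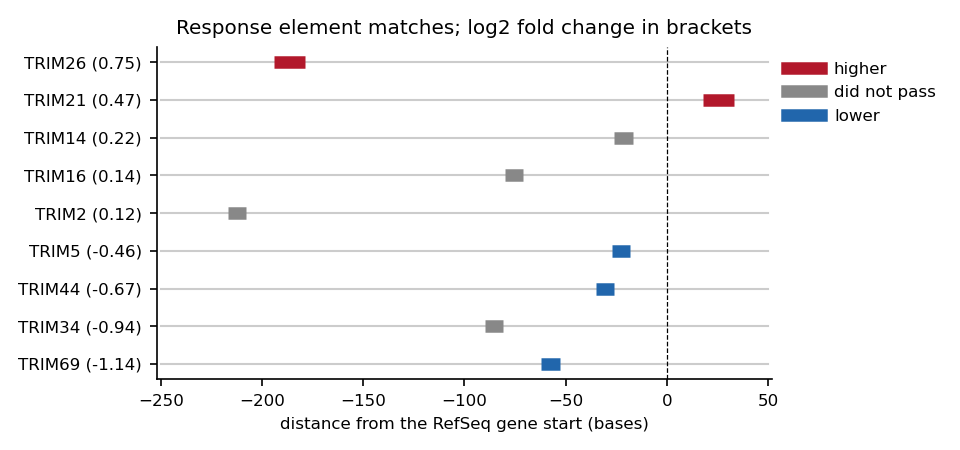
Position of response element matches (thick bars) in the promoter windows of the 9 TRIM genes that hold one, as distance from the RefSeq gene start in bases; grey lines span the window, the log2 fold change is in brackets, and colour gives the call. The TRIM21 match is the only one after the gene start, and genes that rose, fell or did not pass all hold matches upstream of it.

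The COS box members bind microtubules, and several work in striated muscle. 3 of the 8 were tested, and TRIM36 and TRIM54 rose while TRIM63 fell. All 3 were thus called, beside 58.4% of all genes tested. TRIM54 passed the filter on low counts only through the shRNF20 libraries, and TRIM63 only through the shControl libraries. The share called is therefore partly set by the filter and is no result about the class. TRIM54 (ENSG00000138100.14, chr2:27282392-27307439), the muscle ring finger protein MuRF3, had 25, 16 and 35 counts in the shRNF20 libraries, against 4, 3 and 0 counts in the shControl libraries. In CPM these were 0.962, 0.726 and 1.23 in shRNF20, against 0.135, 0.118 and 0 in shControl. The groups were separate at a low level, and the log2 fold change was 3.40 ± 0.59 (adjusted p = 0.00141), or 2.56 when the counts of both strands were summed. TRIM63 (ENSG00000158022.7, chr1:26051304-26068436), MuRF1, which degrades muscle proteins in atrophy, had 7, 6 and 7 counts in the shRNF20 libraries, against 38, 37 and 31 counts in the shControl libraries. In CPM these were 0.269, 0.272 and 0.246 in shRNF20, against 1.29, 1.46 and 1.32 in shControl. MuRF1 thus lay in the opposite direction to its relative MuRF3, also at a low level, with a log2 fold change of -2.35 ± 0.31 (adjusted p = 2.97e-04). TRIM36 (ENSG00000152503.10, chr5:115124762-115180546), which slows the cell cycle when in excess, had 25.4, 28.7 and 27.2 CPM in the shRNF20 libraries, against 20.6, 21.5 and 21.0 CPM in the shControl libraries. All shRNF20 values were higher, with a log2 fold change of 0.37 ± 0.09 (adjusted p = 0.0092), which was 0.31 and no call without shRNF20 replicate 2 (adjusted p = 0.0657).

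Of the 4 NHL members 3 were tested. TRIM3 and TRIM32 rose, while TRIM2, a neuronal ligase, did not pass at 0.12 (adjusted p = 0.423). The share called was 66.7% of these 3, beside 58.4% of all genes tested. TRIM3 (ENSG00000110171.21, chr11:6448613-6474459), which acts in endosome transport and is deleted in some gliomas, had 31.6, 30.7 and 27.7 CPM in the shRNF20 libraries, against 22.1, 19.8 and 20.4 CPM in the shControl libraries. The groups did not overlap, and the log2 fold change was 0.53 ± 0.10 (adjusted p = 0.00187).

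TRIM52 showed the clearest rise. TRIM52 (ENSG00000183718.6, chr5:181254417-181261139), a short member that ends after the B-box and activates NF-kB when in excess, had 10.9, 11.3 and 9.70 CPM in the shRNF20 libraries, against 2.78, 2.72 and 2.04 CPM in the shControl libraries. Each shRNF20 library was several times above each shControl library. The log2 fold change was 2.08 ± 0.18 (adjusted p = 3.78e-05), a 4.22-fold rise, and 1.46 when the counts of both strands were summed. TRIM52 shares 28.5% of its exon bases with CTC-338M12.4, which had a log2 fold change of -0.81 (adjusted p = 0.0441), so reads over the shared bases are not in its count. TRIM47 (ENSG00000132481.7, chr17:75874161-75878575), a ligase of endothelial cells and several carcinomas, had 17.4, 18.4 and 16.1 CPM in the shRNF20 libraries, against 28.0, 29.4 and 31.6 CPM in the shControl libraries. All shRNF20 values were lower, with a log2 fold change of -0.77 ± 0.10 (adjusted p = 2.95e-04).

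TRIM37 (ENSG00000108395.14, chr17:58982638-59106921) had 138, 135 and 136 CPM in the shRNF20 libraries, against 116, 131 and 119 CPM in the shControl libraries. Its groups did not overlap, but the log2 fold change of 0.16 ± 0.07 did not pass (adjusted p = 0.0806). It passed at 0.19 without shControl replicate 2 (adjusted p = 0.0182) and at 0.20 with upper quartile scaling (adjusted p = 0.0498). Among regulators of p53, TRIM13 and TRIM32 rose, TRIM8 fell, and TRIM24, TRIM28 and TRIM39 did not pass. That is 3 of 6 called, beside 58.4% of all genes tested. Without shRNF20 replicate 1, or without shRNF20 replicate 2, 0 of them rose.

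The other members that did not pass were TRIM7 at a log2 fold change of -0.75, TRIM16 at 0.14, TRIM17 at 0.91, TRIM35 at 0.01, TRIM39 at 0.20, TRIM45 at 0.08, TRIM59 at 0.16, TRIM61 at 0.42, TRIM62 at -0.06, TRIM73 at 0.59 and TRIM74 at 0.25. TRIM7 passed without shControl replicate 3 (-1.05, adjusted p = 0.044), and TRIM61 passed without shControl replicate 1 (0.65, adjusted p = 0.00934). TRIM73 was at 1.32 (adjusted p = 0.0543) without shControl replicate 2, and TRIM74 was at -0.85 without shRNF20 replicate 1. With the counts of both strands summed, TRIM17 passed at 1.09 (adjusted p = 0.0396). TRIM16, TRIM73 and TRIM74 have near-identical copies in the genome, and reads that map to several places are not in the counts, so their values are uncertain.

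TRIM genes lie in groups along the genome, and neighbours did not all move together. TRIM47 and TRIM65, on the same strand of chromosome 17 and 1759 bases apart, both fell. In the cluster that spans TRIM21 to TRIM3 on the short arm of chromosome 11, TRIM21 rose, TRIM68, TRIM6 and TRIM5 fell, TRIM34 did not pass, and TRIM3 rose. On chromosome 5, TRIM7 did not pass, while TRIM41 and TRIM52, 18607 bases apart on opposite strands, rose. On chromosome 6, TRIM26 rose and TRIM39 did not pass, while TRIM31, TRIM40, TRIM10 and TRIM15 beside them were not tested. TRIM11 and TRIM17, 1099 bases apart on chromosome 1, did not pass, at 0.17 and 0.91.

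For 25 members, another gene overlaps the exons, and reads over shared bases are recorded as ambiguous. The overlap reached 83.0% of exon bases in TRIM34 and 29.3% in TRIM6, through the readthrough gene TRIM6-TRIM34. It was 51.5% in TRIM47, 41.7% in TRIM39, 34.3% in TRIM59, 33.2% in TRIM61 and 28.7% in TRIM16. The values of these genes rest on the bases they do not share. Among the overlapping genes, SMC4 (over TRIM59) had a log2 fold change of -0.57, HCG18 (over TRIM39) one of -1.33 and TRIM8-DT, which shares 14.1% of the exon bases of TRIM8, one of -1.16.

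1 control library stood apart for several members, which were chosen for being high in it. Over all tested members its distance from the group mean was not the largest: the median absolute deviation was 0.0916 in shControl replicate 1, 0.117 in replicate 2 and 0.0917 in replicate 3 on the log2-CPM scale. In shControl replicate 1, TRIM24 was 2.02-fold, TRIM56 1.90-fold, TRIM16 1.61-fold, TRIM6 1.61-fold, TRIM26 1.57-fold and TRIM61 1.56-fold the mean of the other shControl libraries. TRIM29, a regulator of keratinocyte differentiation and of innate signalling that was not tested, was 8.59-fold that mean, with 2, 5 and 5 counts in the shRNF20 libraries against 106, 19 and 2 counts in the shControl libraries. Without shControl replicate 3, which had 2 counts, TRIM29 was tested and was lower, at a log2 fold change of -3.76 (adjusted p = 0.00515). There it passed the filter only through shControl replicates 1 and 2, where it was high, so that call is set by the library left out. TRIM29 did not pass without shRNF20 replicate 1 (-2.89, adjusted p = 0.106), replicate 2 (-3.51, adjusted p = 0.0721) or replicate 3 (-3.31, adjusted p = 0.0948). With no filter on low counts it did not pass either (-3.25, adjusted p = 0.0958). With the shRNF20 libraries summed to 1 sample, its log2 fold change was -3.20. TRIM16, which takes part in autophagy of damaged lysosomes, had 19.3, 18.6 and 19.1 CPM in the shRNF20 libraries, against 23.0, 16.0 and 12.6 CPM in the shControl libraries. Its log2 fold change of 0.14 (adjusted p = 0.57) was 0.38 and passed without shControl replicate 1 (adjusted p = 0.0261), and was -0.05 without shControl replicate 3 (adjusted p = 0.82). The plot of these members by replicate shows that library as the first point of the control group. The shControl libraries were in general more spread than the shRNF20 libraries, with a median SD over all genes of 0.086 in shRNF20 and 0.209 in shControl on the log2-CPM scale.

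**Figure D5:**
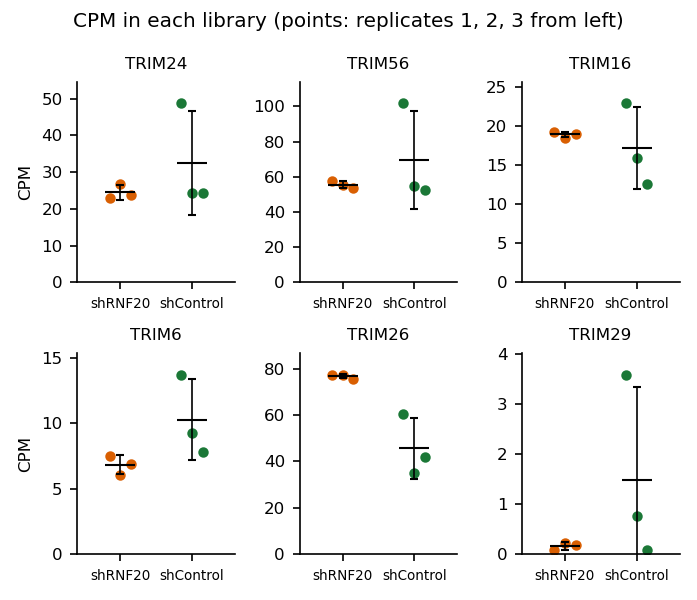
CPM in each library of 6 TRIM genes, shRNF20 left of shControl, with replicates 1, 2 and 3 from left within each group; the black bar is the mean with the SD. In TRIM24, TRIM56, TRIM16, TRIM6, TRIM26 and TRIM29 the first shControl point is the highest of its group.

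22 members were not tested. TRIM42, TRIM43, TRIM48, TRIM49, TRIM51, TRIM58, TRIM60, TRIM64, TRIM75 and TRIM77 had 0 counts in every library. TRIM9, TRIM10, TRIM15, TRIM31, TRIM40, TRIM46, TRIM50, TRIM55, TRIM67, TRIM71 and TRIM72 had at most 10 counts in any library. TRIM72, a muscle membrane repair protein, had 9, 8 and 4 counts in the shRNF20 libraries, against 1, 1 and 0 counts in the shControl libraries. TRIM55, the muscle protein MuRF2, had 0, 2 and 2 counts in the shRNF20 libraries, against 8, 5 and 2 counts in the shControl libraries. With no filter on low counts TRIM72 passed, at a log2 fold change of 3.20 (adjusted p = 0.00977), and TRIM55 did not, at -1.78 (adjusted p = 0.197).

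7 genes share the tripartite motif but carry other names. PML, the organiser of nuclear bodies, fell (log2 fold change -0.45 ± 0.08, adjusted p = 0.00112), and so did MID2, a microtubule-binding ligase (-0.86 ± 0.17, adjusted p = 0.00279). MID1, its paralog mutated in Opitz syndrome, rose (0.38 ± 0.07, adjusted p = 0.0022), as did CMYA5, a muscle protein (1.51 ± 0.30, adjusted p = 0.00254). TRIML2 did not pass at 0.70 (adjusted p = 0.087), and MEFV and TRIML1 were not tested. The share called was 80% of the 5 tested, beside 58.4% of all genes tested.

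Of the 13 genes of the silencing machinery that works with TRIM28, 4 rose, 4 fell and 5 did not pass; the median log2 fold change was -0.10. The share called, 61.5%, was near the 58.4% of all genes tested. Those that rose were the remodeller SMARCAD1 (0.45, adjusted p = 0.00137), the HUSH subunit PPHLN1 (0.37), the heterochromatin protein gene CBX1 (0.35) and the methyltransferase SETDB1 (0.30). Those that fell were the histone H3.3 chaperone DAXX (-0.92, adjusted p = 2.26e-04), the HUSH subunit TASOR (-0.40), the SETDB1 cofactor ATF7IP (-0.31) and the NuRD remodeller CHD3 (-0.17). Without shRNF20 replicate 2, 2 of the 13 rose.

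RING domains work with E2 enzymes. Of 13 E2 genes known to serve TRIM ligases or close relatives, 7 rose, 2 fell and 4 did not pass; the median log2 fold change was 0.21. The share that rose was 53.8% and the share that fell 15.4%, beside 28.7% and 29.8% of all genes tested. UBE2V2, the partner of UBE2N in making K63-linked chains, rose to 103 ± 2.39 CPM in shRNF20 cells, against 65.2 ± 0.226 CPM in shControl cells (0.65 ± 0.06, adjusted p = 7.36e-05). UBE2W, which attaches ubiquitin to N-termini, rose to 52.7 ± 2.68 CPM in shRNF20 cells, against 35.0 ± 2.58 CPM in shControl cells (0.59 ± 0.09, adjusted p = 6.28e-04). UBE2E2 (-0.50) and UBE2E3 (-0.21) fell. The number that rose was 2 without shRNF20 replicate 1 or shRNF20 replicate 3 and 3 without shRNF20 replicate 2. The number that fell was 1 without shRNF20 replicate 1, shRNF20 replicate 2, shRNF20 replicate 3 or shControl replicate 3.

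Of 15 signalling proteins that innate TRIM ligases modify or assist, 2 rose, 8 fell and 5 did not pass; the median log2 fold change was -0.28. The share that fell was 53.3% and the share that rose 13.3%, beside 29.8% and 28.7% of all genes tested. IFIH1, which encodes the TRIM65 substrate MDA5, fell to 6.02 ± 0.272 CPM in shRNF20 cells, against 17.9 ± 4.27 CPM in shControl cells (-1.57 ± 0.18, adjusted p = 1.54e-04). IRF7, a transcription factor for interferon genes, fell to 22.2 ± 0.93 CPM in shRNF20 cells, against 39.1 ± 3.85 CPM in shControl cells (-0.82 ± 0.10, adjusted p = 2.34e-04). TRAF6, a ligase of the NF-kB pathway (0.74, adjusted p = 0.0012), and the kinase TBK1 (0.43, adjusted p = 0.00196) rose. The number that fell was 5 without shRNF20 replicate 1 and 4 without shRNF20 replicate 2.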

How the data were processed

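FastQC 0.12.1, STAR 2.7.11a and the build hg38 are named in the submitters' processing notes. For the gene annotation, the release was not given in the sources used here. As gene tables, the authors deposited raw read counts per gene for each of the 6 libraries, in columns without strand and for each strand, and the counts without strand were used. Lines that name no gene held 20.9% to 24.1% of reads, 10.7% to 11.2% being ambiguous between genes, and stayed out of library sizes and tests. GENCODE 29, built on that assembly and perhaps another release than the authors used, gave positions, gene types and exon lengths; promoter sequences came from RefSeq (GRCh38.p14).

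In edgeR 4.0.16 (R 4.3.3), genes passing filterByExpr (minimum count 10) were scaled by TMM. shRNF20 was compared with shControl by the robust quasi-likelihood F-test, with Benjamini-Hochberg adjustment over all 15797 genes tested and a threshold of 0.05. The SE is the size of the log2 fold change over the root of F. CPM use TMM library sizes. The fit was tested on simulated data, but no outcome of that is reported here. It takes the same spread per gene in both groups, whereas the median SD was 0.086 in shRNF20 and 0.209 in shControl on the log2-CPM scale. No pair of libraries of the same group agreed within sampling noise, which would give a chi-square per degree of freedom near 1. The value was 2.04 to 6.84 between shRNF20 libraries and 31.3 to 51.7 between shControl libraries.

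The TRIM genes, the lists and the tests were chosen with earlier results of these data known. Values in every library are given for called members and the 5 with the highest level per length; partner genes are named where they had the 2 smallest p of their list or were among 5 or fewer moving 1 way; other members named with library values (TRIM16, TRIM24, TRIM29, TRIM55, TRIM56 and TRIM72) were chosen after their values were seen. 1 listed marker gene is not reported here.

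The results were recomputed with upper quartile or RLE scaling, with DESeq2 1.42.0 and limma-voom (limma 3.58.1), with all genes kept or only those at 1 CPM or more in 3 libraries, and with a replicate block. They were also recomputed on both strand columns summed, against 1.2-fold, without mitochondrial genes, without each library in turn, and with shRNF20 summed to 1 sample. The strand columns were near equal, with 50.1% to 50.2% of their counts in the first column. Read strand thus does not tell apart genes that share bases, and the summed columns are a weak check of members with overlapped exons.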

Additional observations from a re-analysis of the deposited data

Results flagged for a closer look

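Reads that mapped outside annotated exons lie outside the gene counts that the TRIM comparisons use, and their share differed between the groups. It was 5.33% ± 0.243 of all reads recorded in the shRNF20 libraries and 2.49% ± 0.1 in the shControl libraries (SD, n = 3 each), a ratio of 2.14 with no overlap. The exact two-sided permutation test gave p = 0.1, the smallest that 3 against 3 libraries allow. Its part in the TRIM results was not tested.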

How the results depend on the processing

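Of the 19 called TRIM genes, 8 (TRIM8, TRIM44, TRIM47, TRIM52, TRIM54, TRIM63, TRIM65 and TRIM68) kept their call and direction under every alternative in which they were tested, and none of the 19 changed direction; TRIM54 was not tested under the stricter filter. All 19 stayed called with DESeq2, RLE scaling, no filter, mitochondrial genes left out and the replicate block. The number that rose was 5 in a test against 1.2-fold and 2 with the shRNF20 libraries summed to 1 sample, where 3372 of all genes were called. That sum leaves shRNF20 with a single sample, assumed to vary like shControl, and 11 calls were lost (TRIM3, TRIM5, TRIM6, TRIM13, TRIM21, TRIM23, TRIM26, TRIM32, TRIM36, TRIM41 and TRIM69). The test against 1.2-fold lost 7 (TRIM5, TRIM6, TRIM13, TRIM21, TRIM32, TRIM36 and TRIM41). With 1 library left out, 5 to 12 members rose and 7 to 11 fell, the median log2 fold change ran between 0.0377 and 0.137, 7523 to 9777 of all genes were called, and RNF20 ran between -2.33 and -2.15.

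Replicate numbers did not pair the libraries (correlations of same-numbered deviations of -0.02, 0.03 and 0.03). With the replicate block 10 members rose, 9 fell, the median was 0.11 and 8936 of all genes were called. Members that did not pass and changed sign were TRIM74 (-0.0795 in limma-voom), TRIM33 (-0.0107) and TRIM35 (-0.0257) with no filter on low counts, and TRIM14 (-0.0355), TRIM39 (-0.10) and TRIM59 (-0.13) with the strand columns summed; the cause was not tested. With 1 library left out, the log2 fold change spanned 0 in TRIM4 (-0.0283 to 0.154), TRIM16 (-0.0469 to 0.385), TRIM33 (-0.00536 to 0.0398), TRIM35 (-0.0119 to 0.0244), TRIM45 (-0.0408 to 0.165), TRIM56 (-0.505 to 0.0294), TRIM62 (-0.173 to 0.0233) and TRIM74 (-0.847 to 0.657). Of the E2 genes, 2 rose with no filter on low counts, in the test against 1.2-fold and with the shRNF20 libraries summed. Of the innate signalling genes, 3 fell in the last 2 of these settings. Of the silencing genes, 1 rose and 2 fell against 1.2-fold, and 0 rose and 1 fell with the libraries summed. With few counts, TRIM54 and TRIM63 carry the largest SE of the called members.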
